A study of Mus musculus with 2 samples.

Results

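Mitochondrial ribosomal protein genes were examined in cultured mouse dendritic cells derived from bone marrow (called GMDC by the submitters), and were taken as every gene whose symbol in the platform annotation starts with Mrpl or Mrps followed by a digit. Of 22180 genes measured by a probe set with 1 symbol, 71 met this rule, through 80 probe sets. Another 7 such symbols (Mrpl30, Mrpl33, Mrpl41, Mrpl43, Mrpl44, Mrpl53 and Mrps6) were covered only by probe sets that carry a further gene's symbol and were not counted as members. The study held 2 samples, each on 1 oligonucleotide array. One was the control culture. The other received conditioned medium of topotecan-treated E0771 cells; E0771 is a mouse breast cancer line, and topotecan inhibits topoisomerase I. The labels give no genotype, mouse strain or time, do not state which medium the control received, and do not say whether RNA of several animals was pooled.

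The mitochondrial ribosome translates the few proteins encoded by mitochondrial DNA, which are core subunits of the respiratory chain and ATP synthase. Its RNA comes from mitochondrial DNA, while its proteins are encoded in the nucleus, made in the cytosol and imported. Some of these proteins have a counterpart in bacterial ribosomes, whereas others are found only in the mitochondrial particle. In dendritic cells, activation by microbial products is known to be accompanied by a move away from oxidative phosphorylation towards glycolysis.

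With 1 array per condition there was no replicate error and no test, and each difference below is the log2 intensity with conditioned medium minus that of the control. A gene was kept if at least 1 of its values reached 4.10, which is the median over both arrays together, and 13712 genes passed. All 71 members passed, each with both of its values above that level. Their log2 intensities ran from 4.11 to 11.14 in the control and from 4.20 to 10.84 with conditioned medium. The arrays had medians of 4.10 and 4.09. A probe set's level depends on its probes as well as on the transcript, so levels of different members were not ranked.

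The members were mostly a little lower in the culture given conditioned medium. Their median log2 difference was -0.33 (quartiles -0.60 and -0.07), a median 1.26-fold lower, beside -0.07 (quartiles -0.45 and 0.36) over all kept genes. Differences lay below 0 in 57 of the 71 members (80.3%), beside 54.0% of all kept genes. At 2-fold, 5 members were lower (7.04%), beside 6.84% of all kept genes, and 0 were higher, beside 8.63%. A probe set shared between Mrpl30 and Gm6238, left out of the members, was past 2-fold higher (1.22). The count of 0 higher therefore holds only for probe sets with 1 symbol. The share of members past 2-fold downward was thus near that of all kept genes. A small downward shift with few higher genes was also seen in the respiratory chain and cytosolic ribosome lists given further on, so it does not set the members apart from those. At 1.5-fold, 19 members (26.8%) were lower, beside 17.9% of kept genes, and 2 (2.82%) were higher, beside 16.6%. No member reached 3-fold in either direction, beside 2.11% of kept genes downward and 4.14% upward. Among the 1408 kept genes with mean levels between the members' quartiles, the median was -0.08, and 54.7% lay below 0. Of these 1408, 141 (10.01%) were at least 2-fold lower, beside 7.04% of members, and 199 were at least 2-fold higher, beside 0 members. At 1.5-fold, 22.66% of them were lower, beside 26.8% of members, and 22.37% were higher, beside 2.82%. Beside this set, the members' share was thus smaller at 2-fold lower and only a little larger at 1.5-fold lower. No difference between these shares was tested.

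The differences of the members had an SD of 0.45, beside 0.88 over all kept genes, 0.38 for nuclear genes of the respiratory chain and ATP synthase, 0.43 for cytosolic ribosomal proteins and 0.17 for mitochondrially encoded subunits. Probe sets of one gene differed on these arrays with a pooled SD of 0.46 over all kept genes with several (652 genes, 787 degrees of freedom), and of 0.25 over the 9 members with 2 (9 degrees of freedom). The spread among members was thus about that between probe sets of a gene in general and larger than that between probe sets of these 9 members. The SD of 0.46 applies to the difference of a single probe set, so it does not gauge a median over many members. Differences of single members below 0 from Mrpl16 (-0.42) to Mrps31 (-0.02) were smaller than 0.46 in size. Probe sets of a gene share the same RNA, so neither SD measures the spread between cultures. In bulk RNA, fewer cells of a type and less RNA per cell cannot be told apart.

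**Figure D1:**
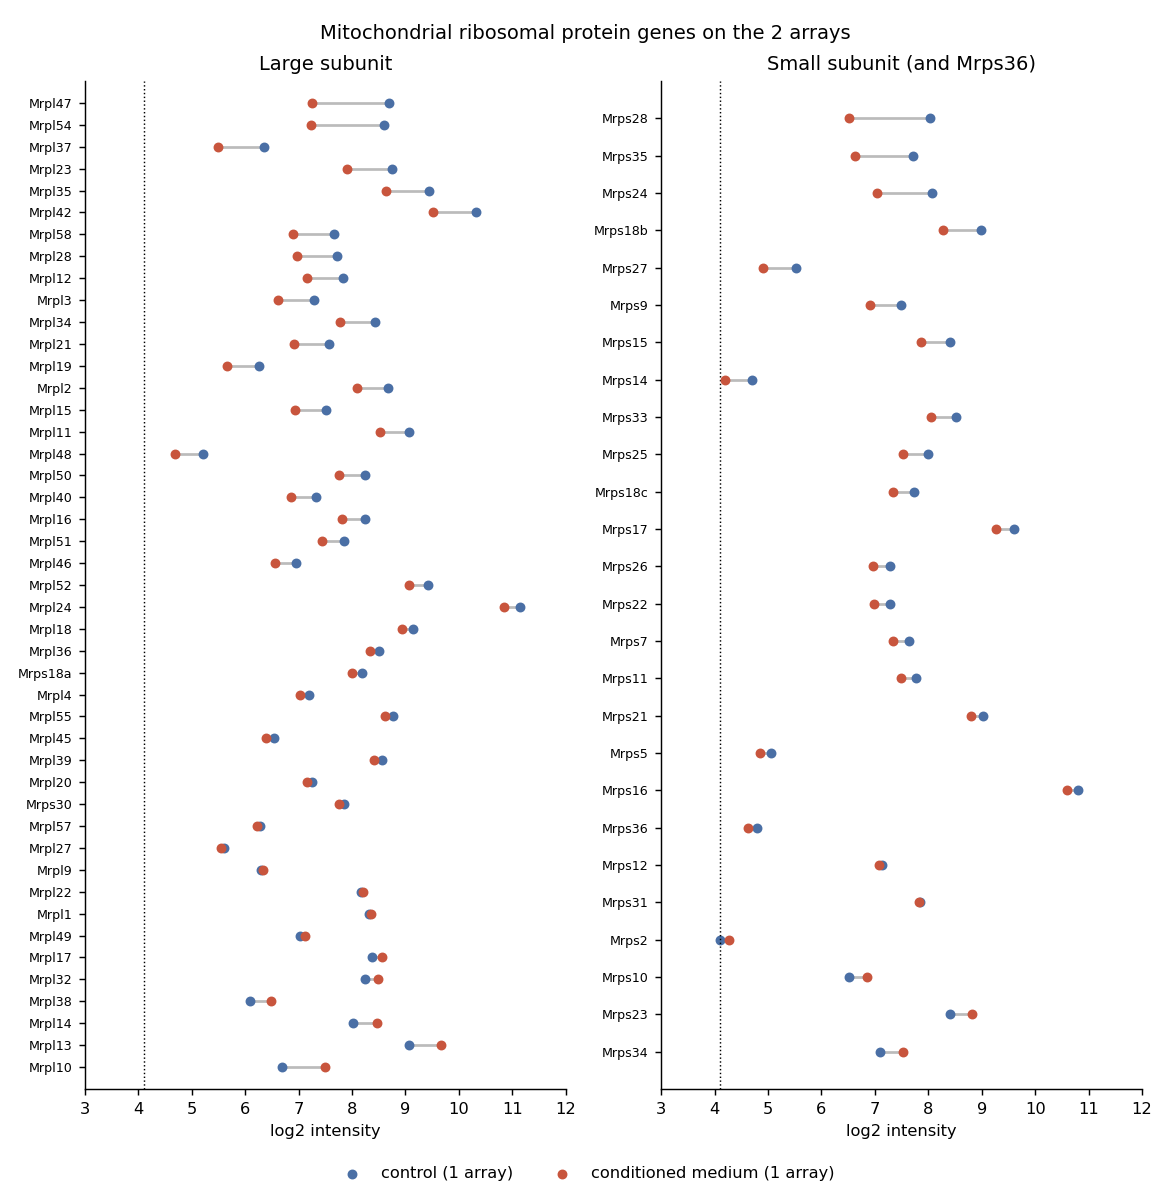
Log2 intensity of each member in the control (blue) and with conditioned medium (red), 1 array each, sorted by difference within each panel, with the filter level of 4.10 as a dotted line. The red point lies to the left of the blue point in 57 of 71 members, by at most 1.51 (Mrps28), and Mrpl10 has the widest gap in the other direction (0.82).

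**Figure D2:**
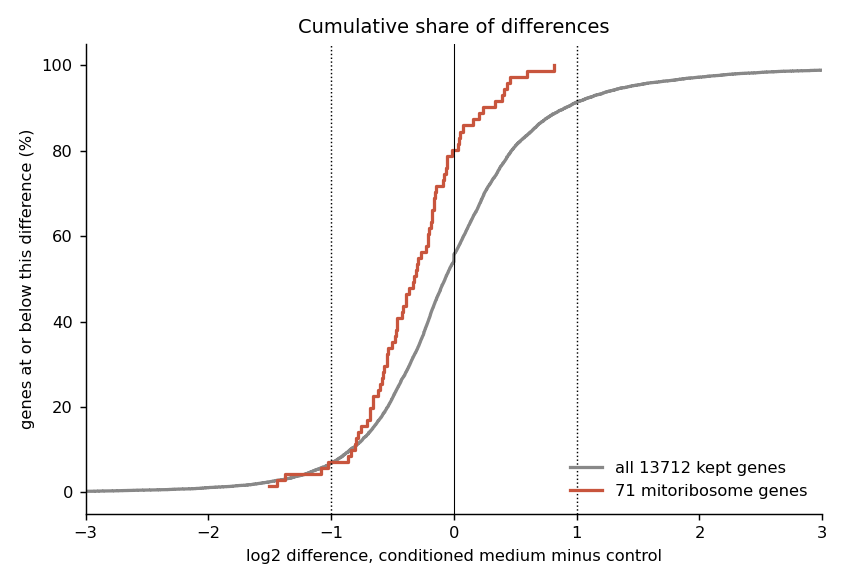
Cumulative share of genes (%) against log2 difference for the 71 members (red) and all 13712 kept genes (grey, x axis cut at -3 and 3), with dotted lines at 2-fold. At a difference of -1 the curves lie close, at 7.04% and 6.84%, and they part between there and 0. Differences below 0 are held by 80.3% of the members and 54.0% of all kept genes.

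The large subunit, which joins amino acids into the peptide chain, had 45 members with a median difference of -0.36, and 35 of them were below 0. Its lowest member was Mrpl47, at 8.68 in the control and 7.24 in the treated culture (2.71-fold lower). Mrpl54 followed, at 8.61 and 7.23 (2.60-fold lower). These were the large-subunit members past 2-fold. Next came Mrpl37, at 6.36 and 5.49 (1.82-fold lower), and Mrpl23, at 8.75 and 7.91 (1.79-fold lower). Mrpl23 stands at the exit of the tunnel through which the new chain leaves the ribosome. Mrpl35 (9.43 and 8.63) and Mrpl42 (10.32 and 9.52) were 1.74-fold lower each. Mrpl58, which belongs to a family of release factors and can free peptides from stalled ribosomes, was 1.72-fold lower (7.67 and 6.89).

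At the other end, Mrpl10 had the largest upward difference of all members, at 6.68 in the control and 7.50 with conditioned medium (1.76-fold higher). Mrpl13 was 1.51-fold higher (9.06 and 9.66), and no further member reached 1.5-fold upward. Mrpl14 (8.01 and 8.47), Mrpl38 (6.10 and 6.49), Mrpl32 (8.25 and 8.49) and Mrpl17 (8.37 and 8.57) had differences of 0.45, 0.39, 0.24 and 0.20. All 4 differences were smaller than the SD of 0.46 between probe sets of a gene over all kept genes, and those of Mrpl14 and Mrpl38 were larger than the SD of 0.25 within members.

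In the stalks of the large subunit, which contact translation factors and transfer RNA, Mrpl10 was higher by 0.82 while Mrpl12, which is carried on Mrpl10 in the particle, was lower (7.84 and 7.16, a difference of -0.68). Mrpl11, at the base of the same stalk, was lower too (9.07 and 8.53, -0.54). Mrpl1, of the stalk on the other side, was nearly level at 8.31 and 8.36. The pair Mrpl10 and Mrpl12 thus differed in opposite directions, although the second probe set of Mrpl10 gave a difference of only 0.04. Around the peptidyl transferase centre, where the peptide bond forms, all 4 listed members were below 0: Mrpl3 (7.30 and 6.61, -0.68), Mrpl2 (8.68 and 8.09, -0.59), Mrpl16 (8.24 and 7.82, -0.42) and Mrpl27 (5.60 and 5.55, -0.05). The difference of Mrpl27 turned above 0 after loess correction or centring. Along the peptide tunnel and its exit, Mrpl23 was lower by the amount given above, and the other 4 lay closer to 0. Mrpl24 had 11.14 and 10.84 (-0.30), Mrpl4 7.20 and 7.02 (-0.18), and Mrpl22 8.17 and 8.21 (0.04, below 0 after quantile normalization). Mrpl45, which tethers the ribosome to the inner membrane, had 6.54 and 6.39 (-0.15).

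The small subunit, which binds messenger RNA and reads its codons, had 25 members with a median difference of -0.33, and 21 were below 0. Mrps28 was the lowest of all members, at 8.02 in the control and 6.52 with conditioned medium (2.85-fold lower). Mrps35 (7.70 and 6.62, 2.12-fold lower) and Mrps24 (8.07 and 7.04, 2.03-fold lower) also passed 2-fold. Both lay close to that size, with differences of -1.08 and -1.02, and fell short of it after loess correction for level (-0.98 and -0.91). Under that correction Mrps28, Mrpl47 and Mrpl54 were still past 2-fold, with differences of -1.40, -1.34 and -1.28. Centring on kept genes also brought Mrps24 under 2-fold (-0.95). Mrps18b (8.99 and 8.28, -0.71) and Mrps27 (5.52 and 4.90, -0.62), which has RNA-binding pentatricopeptide repeats, came next.

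Mrps12, the counterpart of the bacterial decoding-centre protein in which streptomycin resistance arises, was nearly level at 7.13 and 7.07 (-0.06, above 0 after loess correction or centring). Mrps34 (7.10 and 7.53, 0.43), Mrps23 (8.41 and 8.82, 0.41), Mrps10 (6.52 and 6.86, 0.33) and Mrps2 (4.11 and 4.27, 0.16) were the small-subunit members above 0. Mrps2 lay close to the filter level on both arrays, where a signal is hard to tell from background. The Mrps18 family has 3 paralogs, of which Mrps18a is built into the large subunit and the others into the small one. Mrps18b had a difference of -0.71, Mrps18c of -0.39 (7.74 and 7.35) and Mrps18a of -0.18 (8.18 and 8.003), so all 3 lay below 0. Mrps30, whose symbol names the small subunit, is likewise part of the large one and was nearly level (7.84 and 7.76). Mrps36 is now regarded as a component of the 2-oxoglutarate dehydrogenase complex. It met the naming rule but was not counted in either subunit, at 4.80 and 4.63 (-0.16).

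Members were also divided into those with a bacterial counterpart and those specific to mitochondria. The 43 with a counterpart had a median of -0.29, with 33 below 0, and the 27 specific to mitochondria had a median of -0.39, with 23 below 0. After loess correction for level these medians were -0.18 and -0.29. By subunit, the medians were -0.26 for 28 large-subunit members with a counterpart, -0.39 for 17 specific large-subunit members, -0.29 for 15 small-subunit members with a counterpart and -0.39 for 10 specific small-subunit members. The difference between the classes was not tested.

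Second probe sets were available for 9 members and gave the only internal check of single values. In 8 of the 9, both probe sets had differences of the same sign. Mrpl47 was lower on both (-1.44 and -1.07), and a further probe set shared between Mrpl47 and Actl6a had -1.13. A probe set shared between Mrps34 and Nme3 had -0.49, opposite in sign to the 0.43 of the probe set of Mrps34 alone. For Mrps27, a probe set shared with 6430562O15Rik had -0.30, smaller in size than the -0.62 of its own. For Mrpl19, one shared with Gcfc2 had -0.20, smaller in size than the -0.60 of its own. Mrpl12 (-0.68 and -0.56), Mrps18b (-0.71 and -0.64), Mrps18c (-0.39 and -0.33) and Mrps17 (-0.34 and -0.31) had nearly equal differences on both probe sets. These and Mrpl47, 5 members in all, were therefore lower by each of their probe sets. Mrps5 had -0.21 and -0.48, and Mrpl36 had -0.18 and -0.06. Mrps16 went both ways (-0.20 and 0.29), and Mrpl10 had 0.82 on one probe set and 0.04 on the other.

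**Figure D3:**
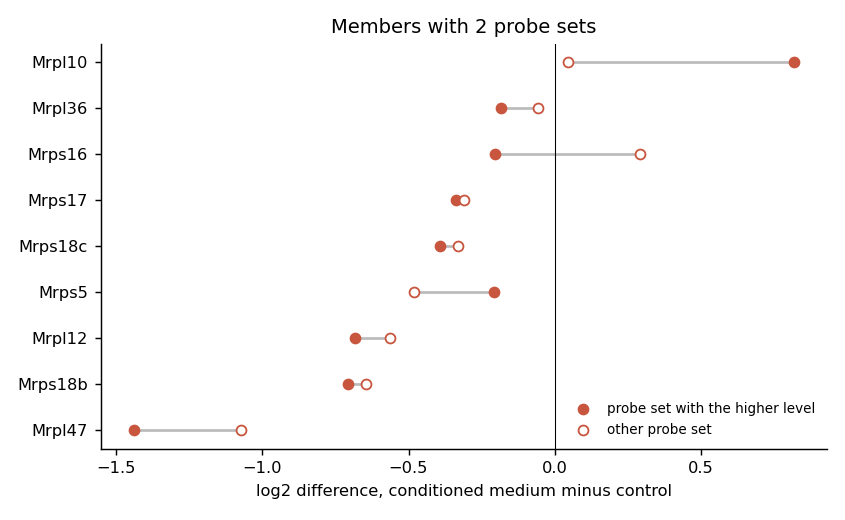
Log2 difference of both probe sets for the 9 members that have 2, with the probe set of the higher level filled. The points of Mrps17, Mrps18b and Mrps18c nearly coincide, those of Mrpl10 are 0.77 apart, and those of Mrps16 lie on either side of 0.

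Most of the other listed genes of mitochondrial translation were below 0, and 3 assembly factors and 4 translation factors were above it. Of the subunits that carry other symbols, 3 were measured: Gadd45gip1 (6.46 and 5.72, -0.74), Dap3 (6.73 and 6.37, -0.36) and Ptcd3 (6.61 and 6.26, -0.35), all below 0. Of 26 kept assembly factors, 23 were below 0, 5 were 2-fold or more lower (19.2%) and 0 higher, with a median of -0.47. Over all kept genes, 54.0% were below 0, 6.84% at least 2-fold lower and 8.63% at least 2-fold higher. Tfb1m, which methylates the small-subunit ribosomal RNA, was lowest at 7.06 and 5.12 (3.84-fold lower). Fastkd2, which acts on the large-subunit RNA, was 2.97-fold lower (7.05 and 5.48). Mterf4, which works with the RNA methyltransferase Nsun4, and Mettl17 were at the upper end of this list, with differences of 0.15 and 0.10.

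Of 16 kept translation factors, 12 were below 0, 4 were 2-fold or more lower and 0 higher, with a median of -0.45. Qrsl1, a subunit of the enzyme that completes glutaminyl transfer RNA, was lowest (5.66 and 4.42, 2.37-fold lower), and Guf1, an elongation factor relative, was 2.33-fold lower (6.67 and 5.45). The initiation factor Mtif3 (0.34) and the translational activator Taco1 (0.20) were highest. Among 12 kept genes of mitochondrial transcription and its regulators, 7 were below 0 and the median was -0.20. Pprc1, a coactivator of the PGC-1 family, was lowest (5.90 and 5.11, -0.80), followed by the transcription factor Tfb2m (6.27 and 5.63, -0.63). Myc, which is known to drive ribosome production, was the only one past 2-fold, at 5.67 and 6.80 (2.20-fold higher), and Tefm, an elongation factor of mitochondrial transcription, had 0.36. Nrf1 (5.80 and 5.66) and Gabpa (5.43 on both arrays), whose proteins bind promoter motifs described further on, were nearly level. Yy1, whose protein binds another of those motifs, had 6.32 and 6.03 (-0.28).

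Transcripts translated by the mitochondrial ribosome and those of cytosolic ribosomal proteins had shifts of similar size, and no protein was measured. Of 10 mitochondrially encoded subunits measured, 9 were below 0 and none passed 2-fold, with a median of -0.38, from ND3 (12.87 and 12.28) and ND2 (11.98 and 11.50) to COX3 (12.36 and 12.11) and COX1 (12.40 and 12.42). These levels were near the top of the arrays' range. Nuclear genes of the respiratory chain and ATP synthase had a median of -0.33, with 56 of 68 below 0. Of these 68, 3 were at least 2-fold lower (4.41%, beside 6.84% of all kept genes) and 0 at least 2-fold higher (beside 8.63%). Ndufs8 (3.02-fold) and Cox7a1 (2.53-fold) were the lowest of these, and Cox7c (0.28) and Ndufb7 (0.22) the highest. Protein genes of the cytosolic ribosome had a median of -0.27, with 46 of 60 below 0. At 2-fold, 0 of them were lower and 1 was higher, beside the same shares of all kept genes. Rps25 (-0.91) and Rpl17 (-0.74) were lowest, and Rpl3l (1.03), a muscle paralog of Rpl3, and Rps16 (0.96) were highest, this last pair with control values under the filter level. No difference between these lists and the members was tested.

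**Figure D4:**
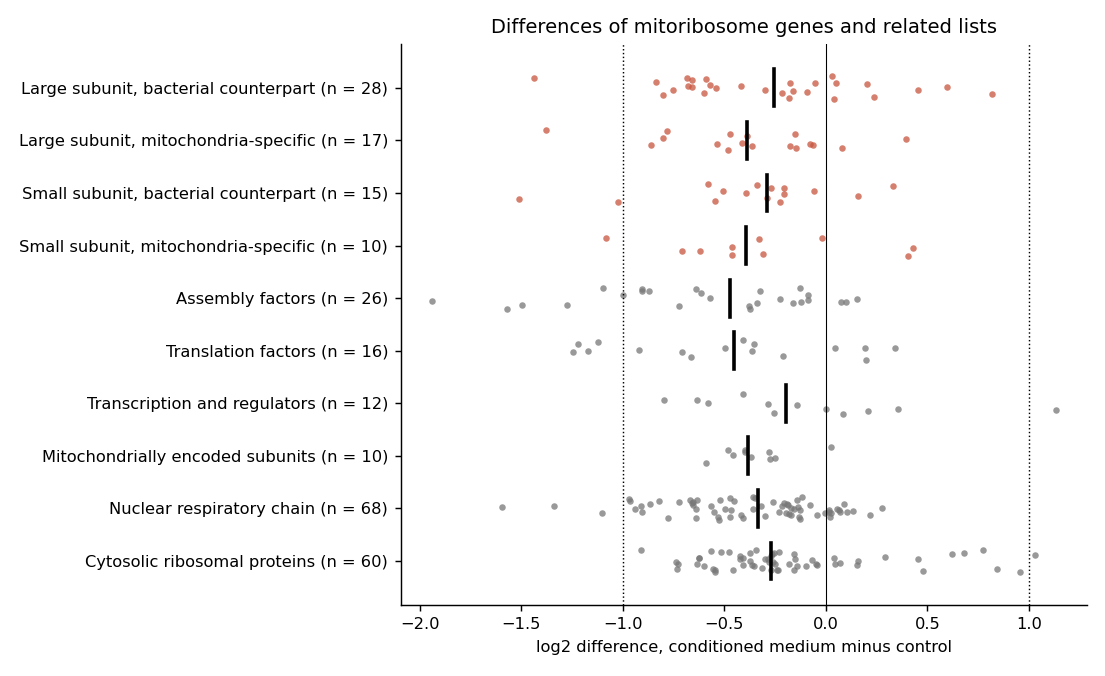
Log2 difference of each kept gene (points) and the median (black bar) for the members in 4 classes (red) and for 6 related lists (grey), with dotted lines at 2-fold. The medians of all 10 rows lie below 0, from -0.47 for assembly factors to -0.20 for transcription and regulators.

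Markers of other cells and of proliferation also differed between these arrays. All 15 listed neutrophil markers were kept, 11 were below 0, and 9 (60.0%) were at least 2-fold lower, beside 6.84% of all kept genes. Their summed linear signal was 11444 in the control culture and 3615 in the treated one. Camp (-5.54) and Ngp (-5.16) were the lowest. Camp, Elane and Mpo were under the filter level with conditioned medium, while Csf3r (0.89), Cebpe (0.80), Ly6g (0.74) and Lcn2 (0.10) had differences above 0. All 21 kept proliferation genes were below 0, 16 of them (76.2%) at least 2-fold lower, with a summed signal of 7234 and 2422. Ccnb2 (-4.66) and Ube2c (-3.69) were the lowest of these, and Tyms (-0.79) and Mcm2 (-0.83) the highest. The summed signal of the 71 members was 22613 and 18114, a ratio of 0.801. Of 6 macrophage markers, Csf1r (-2.93) and Adgre1 (-2.29) were lowest and Fcgr1 (0.98) and Cd68 (0.23) highest, with summed signals of 9119 and 11763. The part of these cell differences in the members' differences was not tested. Of the dendritic cell markers, Itgax had 8.18 and 7.15, H2-Ab1 10.16 and 11.30 and Flt3 4.38 and 3.15, while Zbtb46, a factor that marks conventional dendritic cells, lay under the filter level on both arrays (3.65 each) and Cd74 had no probe set of its own. Of the lymphocyte, epithelial and erythroid markers, 5 were measured, and Cd3e (4.32 and 4.87) and Krt8 (4.96 and 4.77) passed the filter.

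Many members share promoter features that the naming rule did not use. RefSeq promoters (assembly GRCm38.p6, 250 bases before to 50 after the start) were matched by gene ID for 62 of the 71 members. The ETS motif CCGGAAG, bound by factors such as GABP, occurred on either strand in 23 of the 62 (37.1%), beside 17.5% of 10728 kept genes and 9.93% of 27025 genes with a promoter. The motif GCGCANGCG of nuclear respiratory factor 1 (NRF1), an activator of nuclear genes for mitochondria, occurred in 14 (22.6%), beside 13.2% and 7.03%. The YY1 motif AAGATGGCG occurred in 8 (12.9%), beside 3.09% and 1.64%, and the E-box CACGTG, which MYC can bind, in 5 (8.06%), beside 10.98% and 8.09%. At least 1 of the first 3 motifs stood in 37 of the 62.

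Members with and without each motif had medians below 0. Members with an ETS motif had a median difference of -0.33 and those without it -0.30, with 20 of 23 and 31 of 39 below 0. Members with an NRF1 motif had a median of -0.11 (8 of 14 below 0) and those without it -0.39 (43 of 48 below 0). The 8 members with a YY1 motif, Mrpl35, Mrpl36, Mrpl37, Mrpl42, Mrps11, Mrps18a, Mrps24 and Mrps27, were all below 0 with a median of -0.71, beside -0.30 for those without it (43 of 54 below 0). The 5 members with an E-box were also all below 0, with a median of -0.39, beside -0.31 for those without it (46 of 57 below 0). Over all kept genes with each motif, medians were -0.13 (ETS), -0.11 (NRF1), -0.12 (YY1) and -0.09 (E-box). The values for members are descriptions over few genes on the same 2 arrays, and a match is not a bound site.

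Upstream sequences are shown for the 2 lowest members that have an NRF1 motif there, the 2 lowest with an ETS motif, and, for contrast, Mrpl47, the lowest member with a promoter entry, and Mrpl14 and Mrpl10, the highest with one. Each runs 5′ to 3′ on the gene's own strand, in RefSeq GRCm38.p6, over up to 150 bases that end just before the start, and capitals mark a motif on either strand. The regions are chr11:120484487-120484636 (plus strand), chr3:95871515-95871664 (minus strand), chr11:115403602-115403751 (plus strand), chr9:105053118-105053267 (plus strand), chr3:32736756-32736905 (minus strand), chr17:45686219-45686348 (plus strand) and chr11:97041432-97041581 (plus strand).
Mrpl12: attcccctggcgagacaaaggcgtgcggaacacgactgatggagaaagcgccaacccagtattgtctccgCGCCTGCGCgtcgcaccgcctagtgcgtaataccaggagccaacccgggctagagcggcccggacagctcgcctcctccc
Mrps21: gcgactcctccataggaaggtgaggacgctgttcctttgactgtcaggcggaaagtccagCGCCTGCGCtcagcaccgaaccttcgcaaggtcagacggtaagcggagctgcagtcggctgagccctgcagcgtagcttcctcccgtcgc
Mrpl58: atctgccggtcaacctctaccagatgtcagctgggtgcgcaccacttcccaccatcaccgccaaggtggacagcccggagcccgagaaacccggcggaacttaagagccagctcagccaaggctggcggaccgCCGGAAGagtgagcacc
Mrpl3: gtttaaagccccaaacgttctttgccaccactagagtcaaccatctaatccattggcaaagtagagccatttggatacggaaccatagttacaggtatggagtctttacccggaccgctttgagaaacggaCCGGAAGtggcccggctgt
Mrpl47: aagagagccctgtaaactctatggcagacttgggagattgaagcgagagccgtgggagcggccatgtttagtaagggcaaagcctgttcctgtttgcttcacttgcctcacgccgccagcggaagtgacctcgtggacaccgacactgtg
Mrpl14: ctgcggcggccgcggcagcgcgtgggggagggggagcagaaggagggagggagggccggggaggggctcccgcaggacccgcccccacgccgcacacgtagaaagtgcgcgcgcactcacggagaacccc
Mrpl10: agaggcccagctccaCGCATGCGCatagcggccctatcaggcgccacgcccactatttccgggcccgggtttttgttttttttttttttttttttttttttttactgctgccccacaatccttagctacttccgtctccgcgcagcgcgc
Mrpl12 (-0.68) and Mrps21 (-0.22) have the same NRF1 match, CGCCTGCGC, that begins 80 and 90 bases upstream of the start. Mrpl10 (0.82), which differed the other way, has the match CGCATGCGC, beginning 135 bases upstream. Mrpl58 (-0.78) and Mrpl3 (-0.68) have the ETS motif CCGGAAG, which begins 17 and 19 bases upstream. The stretches of Mrpl47 and Mrpl14 hold none of the 4 motifs, which says only that these letters are not in these windows. Mrpl14 is nevertheless among the 14 members with an NRF1 motif. That count searched all 300 bases of every promoter entry of a gene, and its match is not within the 130 bases shown. The position of that match was not listed.

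Several members start head to head with another gene. Taking starts on opposite strands no more than 1000 bp apart, and kept genes only, 21 members had such a partner outside the group. Member and partner had the same sign of difference in 18 of 21 pairs (85.7%), beside 363 of 592 (61.3%) of all such pairs of kept genes. Of the 21 partners, 17 were below 0, beside 54.0% of all kept genes, so the count of same signs follows in part from both sides being mostly below 0. The partners' median was -0.52, beside -0.07 over all kept genes. At 2-fold, 4 partners were lower and 0 higher, beside 6.84% and 8.63% of all kept genes.

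The lowest paired member, Mrpl47, starts 308 bp from Ndufb5, a subunit gene of respiratory complex I that had 8.69 and 7.75 (-0.94). Mrps12 starts 147 bp from Sars2, the mitochondrial seryl-tRNA synthetase gene, which had 5.78 and 5.11 (-0.67) where Mrps12 was nearly level. The largest partner differences were those of genes of cell division: Ska3, a spindle and kinetochore gene beside Mrpl57, had 5.72 and 3.67 (-2.04), and Ncapd2, a condensin gene beside Mrpl51, had 5.86 and 3.89 (-1.97). The members beside them differed by only -0.06 and -0.41. Mrpl14 and Tmem63b were both higher (0.45 and 0.64), as were Mrpl32 and the proteasome gene Psma2 (0.24 and 0.11). Opposite signs were seen for Mrps18b and Ppp1r10 (-0.71 and 0.80), Mrps5 and Zfp661 (-0.21 and 0.31), and Mrpl49 and Fau (0.08 and -0.01).

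**Figure D5:**
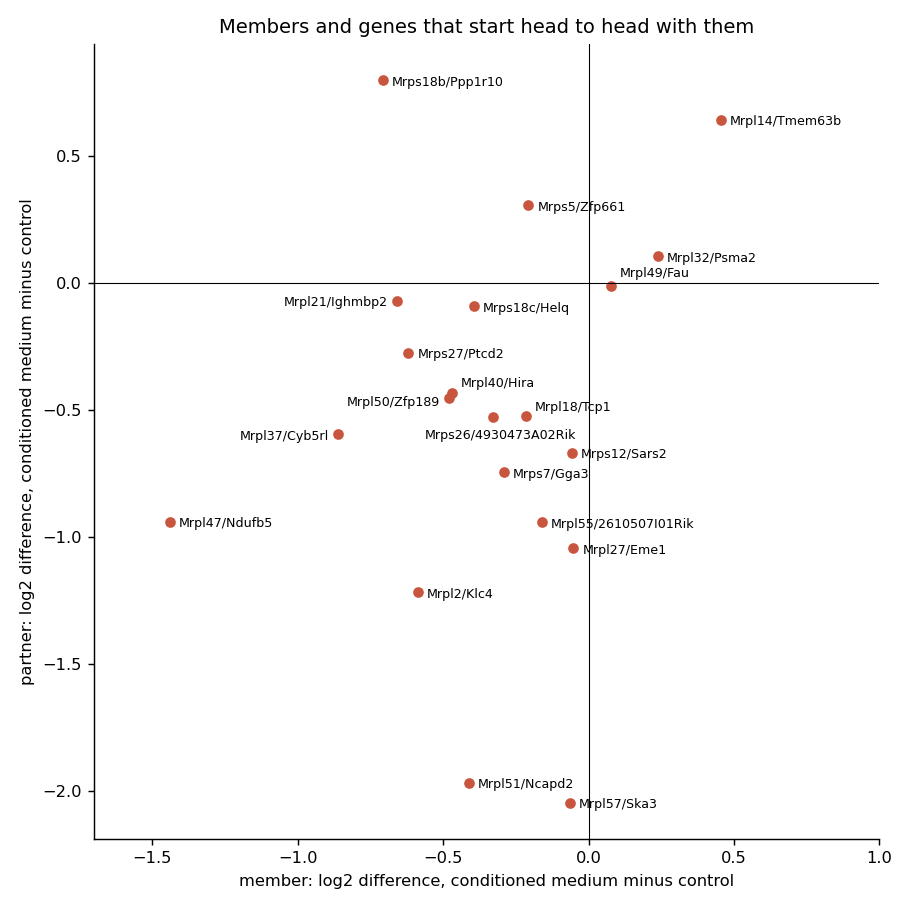
Log2 difference of 21 members (x axis) and of the genes that start head to head with them (y axis), each point a pair labelled member/partner. Most points lie in the lower left quadrant, 2 lie in the upper right, and 3 pairs have opposite signs.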

How the data were processed

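Total RNA extracted with Trizol was turned into biotinylated cRNA for Affymetrix arrays, per the labels' protocols. Affymetrix Expression Console is named in the submitters' processing notes, while a version, an algorithm or a genome build was not given in the sources used here. In the table that the authors deposited there is 1 value per probe set and array (41345 probe sets), taken as log2 intensity from the range (-0.26 to 13.42 and 0.02 to 13.50). Both arrays had nearly the same distribution, so a shift of most genes together would not be seen.

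Gene symbols came from the platform annotation. Probe sets with 1 symbol (23521) were used, those with several (1814) or none (16010) were not. For each gene the probe set of highest mean over both arrays was taken. Members, gene lists, motifs and the size rule were chosen with earlier results of these data known. Values are given for the 10 highest and 10 lowest members, those past 2-fold, with 2 probe sets or with a listed role, and for the 2 highest and 2 lowest genes of each related list. Other members and partners of members were named after their values were seen. Subunit and role were assigned from general knowledge. The number of arrays (1 per condition) limits the precision. The tools were pandas 2.3.3 and numpy 2.4.6 under Python 3.11.15, with statsmodels 0.14.6 for loess and matplotlib 3.10.9 for figures. The 2-fold cut was tried on simulated differences set beyond 2-fold, which does not test the counts given for these data.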

Additional observations from a re-analysis of the deposited data

Results flagged for a closer look

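A signal lay in a probe set that no comparison used. Probe set 17211998, which carries the symbols Mrpl30 and Gm6238, had 7.26 in the control culture and 8.49 in the treated one, a difference of 1.22 on the log2 scale. The other 12 probe sets that share a member symbol with another gene ran from -1.13 (Actl6a and Mrpl47) to 0.33 (Mrpl44 and Wdfy1). Which of the named genes gave each signal was not tested.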

How the results depend on the processing

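After a loess curve of difference on level was subtracted (fraction 0.3, 3 iterations), the medians moved to -0.23 for all members, -0.22 for the small subunit, -0.18 for members with a bacterial counterpart, -0.29 for those specific to mitochondria and -1.58 for proliferation genes, and 3 members were at least 2-fold lower in place of 5. The median of all kept genes was then 0.00. At 1.5-fold, 19 members were lower and 2 higher, and at 3-fold 0 were lower. Over quantile normalization, loess, centring, averaged probe sets and the changed filters, the members below 0 numbered 51 to 58. The sign of the difference changed under an alternative for 4 of 39 members with their own comparison: Mrpl22, Mrpl27, Mrps12 and Mrps16. Medians were held to have moved at a change of 0.1. No paired analysis was possible because each condition had 1 array, and for the same reason no replicate could be left out.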
